A study of Mus musculus with 19 samples.

Results

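Ribosomal proteins of the cytosol are the structural proteins of the particles that translate messenger RNA. They are divided between a large subunit, which joins amino acids, and a small subunit, which reads the message, and a growing cell needs them in nearly equal numbers. Their genes are read at high levels in most cells, and their mRNAs begin with a run of pyrimidines that couples their translation to the growth kinase mTORC1. In blood formation they are known mainly from inherited anaemias and from Rpl22, whose loss in mice blocks the development of αβ T cells.

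The genes described here are those rows of the deposited expression table whose symbol has the form of a cytosolic ribosomal protein gene (Rpl or Rps and a number with an optional short suffix, Rplp0 to Rplp2, and Rpsa). The rule matched 83 of 18607 rows. One of these, Rps4l, is annotated as a processed pseudogene and was left out, which gave 82 genes, 51 of the large and 31 of the small subunit. They lie on 19 chromosomes, with at most 14 on one, chromosome 7.

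The libraries come from 3 stages of lymphoid progenitors sorted from bone marrow of C57BL/6 mice on the path to innate lymphoid cells, the tissue lymphocytes without rearranged antigen receptors. All-lymphoid progenitors (ALP, 7 libraries) were lineage-low, Ly-6D-low cells with Kit, IL-7Ra and high Flt3. Early innate lymphoid progenitors (EILP, 7 libraries) were lineage-low, Ly-6D-low and CD122-low cells with Kit, high GFP, low Thy-1.2 and an IL-7Ra level that was low or intermediate. The third stage, ILCp (5 libraries), had the same lineage, Ly-6D, CD122, Kit and GFP gates with Thy-1.2, a4b7 and high IL-7Ra. The mice carried 1 Tcf7 allele with EGFP (Tcf7EGFP/+), ALP donors included, except for ILCp 4 and ILCp 5, which were sorted from mice of the Plzf-cre-GFP/+ genotype. The GFP gate of those 2 libraries thus rests on another reporter than that of the other 3 ILCp libraries. Whether 2 libraries of a stage stand for 2 animals is not said in the labels. The p-values below therefore reflect only how far these libraries scatter, which may be technical. There were 5 batches. Batch 1 held 1 library of each stage, batch 2 held 2 ALP, 1 EILP and 1 ILCp, batch 3 held 2 EILP only, batch 4 held 1 ALP, 1 EILP and 3 ILCp, and batch 5 held 3 ALP and 2 EILP.

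Levels are log2 CPM, the base-2 logarithm of read counts scaled to a common library total (CPM), as deposited. They are shares of a library, so fewer cells of a type and less RNA per cell cannot be told apart, and the sequencing depth is unknown. Of the 9 surface and reporter genes that defined the gates, 6 rose and 1 fell in EILP against ALP, 3 rose in ILCp against EILP, and 7 rose and 1 fell in ILCp against ALP. Thy1 was below 1 CPM in every ALP library. Markers of other cell types were read as well, at the levels given here by stage. The summed CPM of 11 neutrophil and monocyte markers lay between 552 and 6806 in ALP, 1624 and 41756 in EILP and 90.0 and 1695 in ILCp, where Ly6g was below 1 CPM in every ALP library and Ly6g and Camp were so in every ILCp library. The sum of 9 B lineage markers was 1442 to 1862 in ALP, 372 to 665 in EILP and 416 to 717 in ILCp, and Pax5 was below 1 CPM in every library of each stage. The sum of 8 T cell markers was 188 to 355 in ALP, 183 to 341 in EILP and 245 to 597 in ILCp, with Cd3d, Cd3e, Cd3g and Trac below 1 CPM in every ALP library. That of 10 erythroid markers was 2.54 to 281 in ALP, 33.5 to 1135 in EILP and 41.6 to 1403 in ILCp. Of these lists, 2 B lineage genes were called lower in EILP against ALP, 2 neutrophil and monocyte genes lower in ILCp against EILP, and 3 B lineage and 1 monocyte gene lower and 2 T cell genes higher in ILCp against ALP. Of these calls, that of Ebf1 in EILP against ALP was lost in 15 of 19 fits that each left out 1 library, those of Mpo and Prtn3 in ILCp against EILP in 16 and 6, and that of Cd3g in ILCp against ALP in 15. In ILCp against ALP those of Ebf1 and Csf1r were lost in 3 each and that of Cd3d in 2. Of the gate genes, the call of Thy1 in EILP against ALP was lost in 13 such fits, that of Kit in ILCp against EILP in 8, and those of Thy1 in ILCp against EILP and Itga4 in ILCp against ALP in 1 each. Whether reads of the neutrophil and monocyte, B lineage, T cell and erythroid markers came from other cells or from the progenitors was not tested. Their part in the differences below was not tested either. Genes below −2 log2 CPM made up between 30.1% and 35.8% of a library, with the lowest share in ILCp 4.

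The starts of ribosomal protein genes share short sequence patterns, and the genes that passed a test below are shown here first, as 60 bases around the annotated start of transcription from RefSeq on GRCm38.p6. Each window holds the 30 bases before the start and, from the start on, the next 30. For the counts further on, 4 patterns were searched from 60 bases before to 50 bases after the start. Capitals mark a match within the printed window to 1 of these 4 patterns. These were CTCTTTC on the gene's own strand, a pyrimidine run as at the start of such mRNAs, CGGAAG on either strand, the core bound by ETS factors such as GABPA, CCATNTT on either strand, the core bound by YY1, and TATAAA on the gene's own strand.
Rps2 (chr17:24720033-24720092, + strand): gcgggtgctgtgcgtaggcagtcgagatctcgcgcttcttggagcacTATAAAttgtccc
Rps4x (chrX:102189362-102189421, − strand): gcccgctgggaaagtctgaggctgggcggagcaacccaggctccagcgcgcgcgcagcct
Rps16 (chr7:28350659-28350718, + strand): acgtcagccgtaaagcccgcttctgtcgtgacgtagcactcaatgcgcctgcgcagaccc
Rpl10 (chrX:74270786-74270845, + strand): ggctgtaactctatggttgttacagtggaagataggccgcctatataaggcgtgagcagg
Rpl14 (chr9:120571487-120571546, + strand): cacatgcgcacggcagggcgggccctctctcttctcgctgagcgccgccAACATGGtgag
Rpl22 (chr4:152325696-152325755, + strand): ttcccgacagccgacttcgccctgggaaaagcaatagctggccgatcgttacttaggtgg

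4 further windows show the pyrimidine run at or near the start, for comparison with those above. They were chosen as examples after the matches were known.
Rpl35 (chr2:39005102-39005161, − strand): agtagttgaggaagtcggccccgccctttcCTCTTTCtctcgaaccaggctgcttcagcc
Rpl28 (chr7:4792935-4792994, + strand): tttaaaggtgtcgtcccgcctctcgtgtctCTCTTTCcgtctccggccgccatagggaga
Rpl18 (chr7:45718041-45718100, + strand): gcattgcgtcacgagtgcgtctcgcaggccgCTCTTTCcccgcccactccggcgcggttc
Rpl5 (chr5:107900498-107900557, + strand): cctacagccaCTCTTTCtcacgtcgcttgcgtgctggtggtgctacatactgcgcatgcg

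A promoter entry was found for 62 of the 82 genes and Rps20 was among those without one. CTCTTTC stood in 12 of 62 (19.4%), against 1.76% of 27025 genes with an entry. CGGAAG stood in 26 of 62 (41.9%) against 11.2% of genes, CCATNTT in 11 of 62 (17.7%) against 7.55%, and TATAAA in 5 of 62 (8.06%) against 4.33%. Matches of different patterns may overlap and were counted separately, and a match marks no bound site, since no binding was measured. In Rps2 the TATAAA match lay after the start, and in Rpl14 the CCATNTT match was on the opposite strand. The RefSeq starts of Rps2, Rpl14, Rpl18, Rpl28 and Rpl35, among others, lie inside the longer GENCODE gene models, so their windows may not be the starts in use. Windows of Rps4x, Rps16, Rpl10 and Rpl22 held no match.

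Nearly all of the genes were read at high levels in all 3 stages. Averaged over the 19 libraries, 79 of 82 were above 5 log2 CPM, all 31 of the small subunit and 48 of the large one. Per kilobase of annotated transcript, the genes with the highest mean levels included Rpl32 (11.20 log2 CPM per kilobase), Rps19 (10.89), Rps18 (10.71) and Rps14 (10.66). The lowest 5 were Rpl3l, Rpl39l, Rpl24, Rps20 and Rpl22l1. Rps20 had 7.17 log2 CPM per kilobase with an annotated transcript of 3706 bases, against a median of 680.5 bases over the 82 genes, and its level without the length was 9.06 log2 CPM. Of the genes above 5 log2 CPM, 37 lay between 9 and 10 log2 CPM per kilobase.

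Rpl24, a large subunit protein made by every cell, averaged −0.07 log2 CPM. Another gene model, Gm28037, overlaps it on the same strand and has no row in the table. Rpl24 lay between −1.22 and 1.15 log2 CPM in ALP, −0.39 and 1.02 in EILP and −1.45 and 0.25 in ILCp. Its value is given as deposited and cannot be read as the amount of Rpl24 mRNA. In all, 28 of the 82 genes are overlapped by another gene model, 6 on the same strand and 23 on the opposite one. The libraries do not mark strand, and how the authors counted such reads is not given in the sources used here. Ribosomal protein genes also have many processed copies, whose reads can be exchanged with theirs. The table had 149 rows named as such pseudogenes, and their summed CPM was 0.635% to 0.968% of the summed CPM of the 82 genes in each library.

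As a group the genes were at like levels in ALP and EILP and lower in ILCp. The median over the 82 genes, in log2 CPM, averaged 8.93 ± 0.28 over the 7 ALP libraries, 8.97 ± 0.17 over the 7 EILP libraries and 8.52 ± 0.21 over the 5 ILCp libraries (SD). The lowest, median and highest library were 8.41, 8.88 and 9.23 in ALP and 8.76, 9.01 and 9.21 in EILP, and the 5 ILCp libraries were 8.82, 8.59, 8.34, 8.29 and 8.57. ILCp 1 lay inside the range of both other stages. The lowest and the highest ALP library, ALP 5 and ALP 6, came from the same batch, and the ALP range spans that of EILP. Together the genes took 5.02 ± 0.83% of the summed CPM in ALP (SD, n = 7), 5.04 ± 0.46% in EILP (SD, n = 7) and 4.02 ± 0.43% in ILCp (SD, n = 5).

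**Figure D1:**
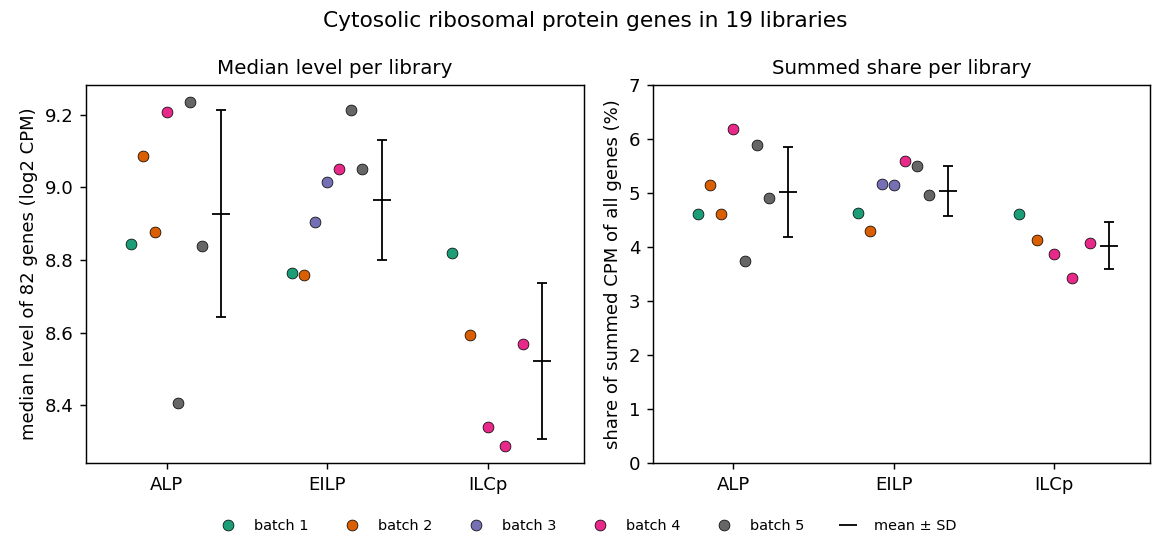
Median log2 CPM over the 82 cytosolic ribosomal protein genes (left) and their share of the summed CPM in percent (right), 1 point per library coloured by batch, with mean ± SD beside each stage. ILCp 1 at 8.82 lies with ALP 1 and EILP 1 of the same batch, the 3 ILCp libraries of batch 4 lie between 8.29 and 8.57, and ALP libraries spread from 8.41 to 9.23.

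The first comparison asks how these genes differ between EILP and the ALP they are set against. Each gene was tested with limma across all 18607 genes with batch in the model, and a gene was called at a Benjamini-Hochberg adjusted p below 0.05. None of the 82 was called higher, where 2.25% of all genes were, and none was called lower, where 2.79% were. At an unadjusted p below 0.05, 1 of 82 was higher (8.63% of all genes) and 0 were lower (8.83%). No gene separated the 7 EILP from the 7 ALP libraries (2.36% and 2.38% of all genes did so, higher and lower in EILP). The median fold change was 0.01 on the log2 scale, as against 0.00 for all genes, with 39 genes below 0 and 43 above. When the libraries were centred on their own medians, the median of all genes moved to 0.22 and that of these genes moved with it, also to 0.22, and 2 of 82 were then called higher, where 4.32% of all genes were.

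The one with an unadjusted p below 0.05 was Rpl38, a small protein of the large subunit that is needed in mice for translation of Hox mRNAs. It measured 7.79, 8.19 and 8.43 log2 CPM in the lowest, median and highest EILP library, against 6.95, 7.69 and 8.04 in ALP. The ranges overlap, and ALP 5 was the lowest of all. Its log2 fold change was 0.42 ± 0.19 (SE) with an adjusted p of 0.265 in limma. By batch the difference was 0.12, 0.12 and 0.15 in batches 1, 2 and 4 and 0.81 in batch 5, which holds ALP 5. Next came Rpl36al and Rpl27 of the large subunit, at 0.27 ± 0.17 and 0.24 ± 0.19 (SE). The lowest fold changes above 5 log2 CPM were those of Rps18 (−0.32 ± 0.16), Rps20 (−0.28 ± 0.14) and Rpl22 (−0.28 ± 0.15), each with an adjusted p above the threshold (0.326, 0.295 and 0.362 in limma).

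The second comparison sets ILCp against EILP, the stage before. Here 80 of the 82 genes had a fold change below 0, and 48 of 82 were lower at an unadjusted p below 0.05, against 9.28% of all genes. The median was −0.43 on the log2 scale, as against −0.08 over all genes and −0.10 over all genes above 5 log2 CPM. Only 1 of 82, Rps2, passed the adjusted threshold as lower, where 1.46% of all genes did, and none passed as higher (1.76%). At an unadjusted p below 0.05, 0 of 82 were higher (7.37% of all genes). In 26 of 82 genes, 16 large and 10 small subunit genes, every ILCp library lay below every EILP library, against 5.34% of all genes. None had every ILCp library above every EILP library (3.35%).

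Rps2, a protein of the small subunit at the entry of the mRNA channel, measured 9.69, 9.66, 9.67, 9.56 and 9.57 log2 CPM in ILCp 1 to 5. The lowest, median and highest libraries were 9.92, 10.18 and 10.38 in EILP. The 5 ILCp libraries lay close together and below all of EILP. The log2 fold change was −0.53 ± 0.11 (SE) with an adjusted p of 0.0141 in limma, and the difference was −0.40, −0.27 and −0.63 in batches 1, 2 and 4. Without EILP 5 the adjusted p was 0.0864, and without batch 4 it was 0.249 at a log2 fold change of −0.46.

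The 3 genes with the lowest fold changes above 5 log2 CPM were not called. Rpl36al, a paralog of Rpl36a, measured 7.32, 7.18, 7.09, 6.99 and 6.96 log2 CPM in ILCp 1 to 5, against 7.61, 7.86 and 7.99 in the lowest, median and highest EILP library. These ranges do not overlap. Its log2 fold change was −0.74 ± 0.20 (SE) with an adjusted p of 0.0545 in limma. Rps27l, the paralog of Rps27 and a p53-induced gene, followed at −0.71 ± 0.23 (SE, adjusted p = 0.121) and Rpl38 at −0.67 ± 0.22 (SE, adjusted p = 0.128). At the other end, Rpl7l1 (0.04 ± 0.17), Rps27 (−0.03 ± 0.24) and Rpl9 (−0.10 ± 0.20) had the highest fold changes above 5 log2 CPM. Rps27 measured 9.08, 9.13, 8.58, 8.39 and 9.12 log2 CPM in ILCp 1 to 5, against 8.43, 8.90 and 9.30 in the lowest, median and highest EILP library, and all but ILCp 4 lay inside the EILP range.

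The third comparison spans the path, ILCp against ALP. It shares its ILCp libraries with the one before. All but 1 of the 82 fold changes were below 0, with a median of −0.42 on the log2 scale, as against −0.03 over all genes. Of the 82, 7 passed as lower, where 4.39% of all genes did, and none as higher (3.86%). At an unadjusted p below 0.05, 52 were lower (11.8% of all genes) and 0 higher (9.09%). In 5 genes, Rps2, Rps4x, Rps20, Rpl10 and Rpl22, every ILCp library lay below every ALP library (4.96% of all genes), and in none above (4.01%). When libraries were centred on their own medians, the median of all genes was 0.09, that of these genes was −0.30, and 2 of 82 were called lower, where 3.14% of all genes were.

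The 7 called genes were 4 of the small subunit and 3 of the large one. Rps2, described above, measured 9.88, 10.12 and 10.31 log2 CPM in the lowest, median and highest ALP library, all above the ILCp libraries. Its log2 fold change was −0.48 ± 0.10 (SE, adjusted p = 0.00829, limma), and the differences were −0.42, −0.56 and −0.53 in batches 1, 2 and 4. Rps20, a protein of the small subunit's head, measured 8.97, 8.77, 8.63, 8.30 and 8.60 log2 CPM in ILCp 1 to 5, against 9.01, 9.44 and 9.66 in ALP. ILCp 1 came within a narrow margin of the lowest ALP library, ALP 5. The log2 fold change was −0.69 ± 0.16 (SE, adjusted p = 0.0106), and the differences by batch were −0.14, −0.55 and −1.05.

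Rps4x, encoded on the X chromosome, measured 9.69, 9.48, 9.63, 9.18 and 9.47 log2 CPM in ILCp 1 to 5, against 9.74, 9.91 and 10.06 in the lowest, median and highest ALP library, and fell by 0.42 on the log2 scale (SE 0.11, adjusted p = 0.0207, limma). Rps16 measured 8.72, 8.42, 8.30, 8.18 and 8.44 log2 CPM in ILCp, against 8.42, 9.08 and 9.28 in ALP. Here ALP 5 was as low as the ILCp libraries, and the other 6 ALP libraries were above all of them. Its log2 fold change was −0.59 ± 0.17 (SE, adjusted p = 0.043, limma).

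Rpl10, also on the X chromosome and among the last proteins to join the large subunit, measured 9.19, 9.07, 9.24, 8.80 and 8.71 log2 CPM in ILCp 1 to 5, against 9.33, 9.45 and 9.58 in the lowest, median and highest ALP library. ILCp 4 and ILCp 5, the 2 libraries from Plzf-cre-GFP/+ mice, were the lowest. The log2 fold change was −0.43 ± 0.12 (SE, adjusted p = 0.0334, limma). Rpl14 measured 9.48, 9.16, 9.20, 8.98 and 9.31 log2 CPM in ILCp, against 9.28, 9.78 and 10.11 in ALP, where ALP 5 overlapped the ILCp libraries. It fell by 0.50 on the log2 scale (SE 0.14, adjusted p = 0.0376, limma). Rpl22 measured 7.11, 6.73, 7.03, 6.47 and 6.82 log2 CPM in ILCp, against 7.13, 7.65 and 7.80 in ALP. Its lowest ALP library, ALP 7, stood just above the highest ILCp library, and its log2 fold change of −0.72 ± 0.17 (SE, adjusted p = 0.0158, limma) was the largest fall of the 79 genes above 5 log2 CPM.

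**Figure D2:**
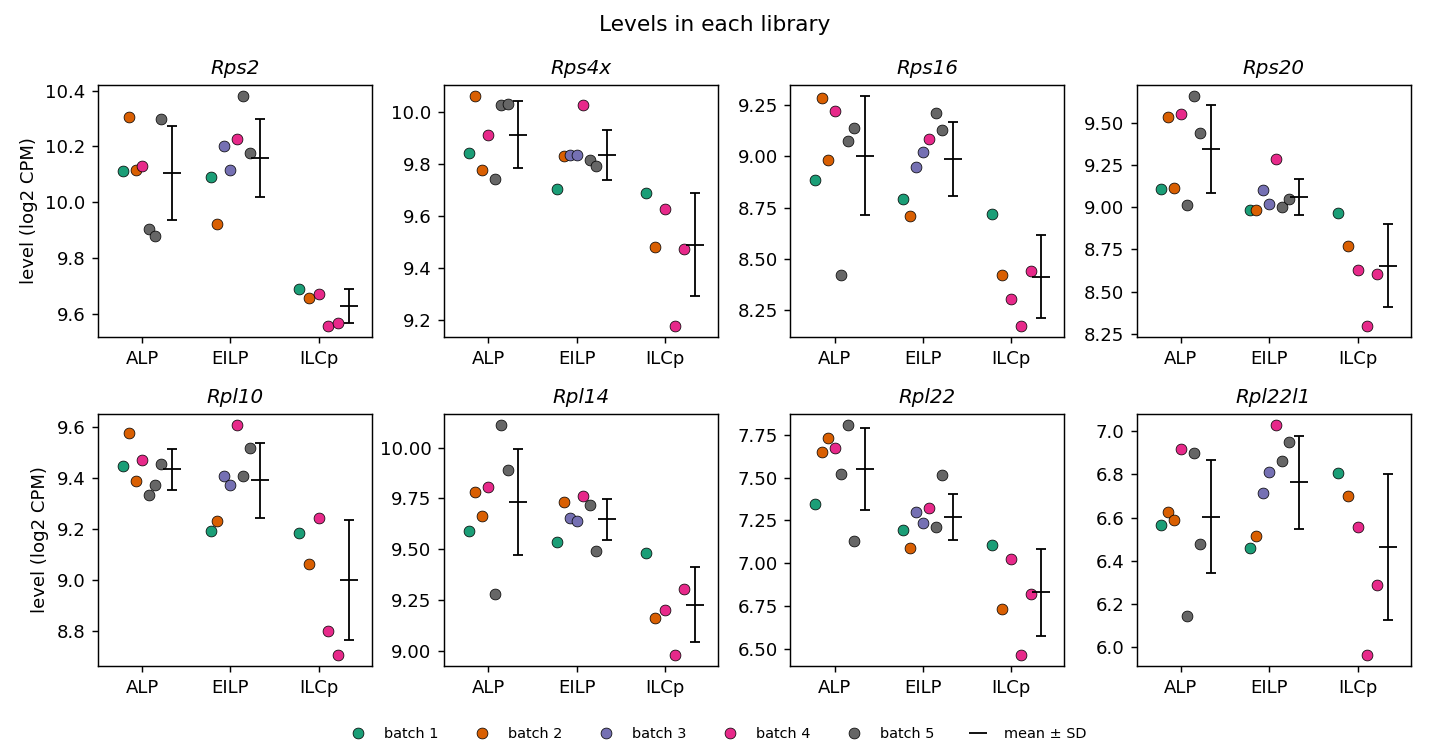
Level in log2 CPM of the 7 genes called lower in ILCp against ALP and of Rpl22l1, 1 point per library coloured by batch, with mean ± SD beside each stage. The ILCp points of Rps2 lie between 9.56 and 9.69, below all other libraries, while those of the other 6 called genes spread wider, with ILCp 1 the highest or second highest.

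Of the 3 lowest fold changes in ILCp against ALP, those of Rpl22 and Rps20 were called. The other, Rps12 of the small subunit, was not called at −0.67 ± 0.22 (SE, adjusted p = 0.0756, limma). The fold changes above 5 log2 CPM nearest to 0 included those of Rpl22l1 (−0.14 ± 0.22) and Rpl21 (−0.14 ± 0.13).

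The difference between ILCp and the other stages was unlike in size from batch to batch. Against EILP the median over the 82 genes was 0.00 within batch 1, −0.12 within batch 2 and −0.65 within batch 4. Against ALP it was −0.01, −0.34 and −0.83. The first 2 batches hold 1 ILCp library each and batch 4 holds 3, among them both Plzf-cre-GFP/+ libraries, and the ALP and EILP of batch 4 are 1 library each. EILP against ALP gave medians of −0.10, −0.17, −0.15 and 0.23 in batches 1, 2, 4 and 5. Without batch 4 the medians of ILCp were −0.18 against EILP and −0.11 against ALP and no gene was called (0.844% and 2.5% of all genes were, as lower), with 1 and 4 genes lower at an unadjusted p below 0.05 (7.44% and 9.14% of all genes). With batch 4 alone no gene was called either (2.96% and 3.18% of all genes were, as lower), with 35 and 50 lower at an unadjusted p below 0.05 (8.01% and 8.78% of all genes).

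**Figure D3:**
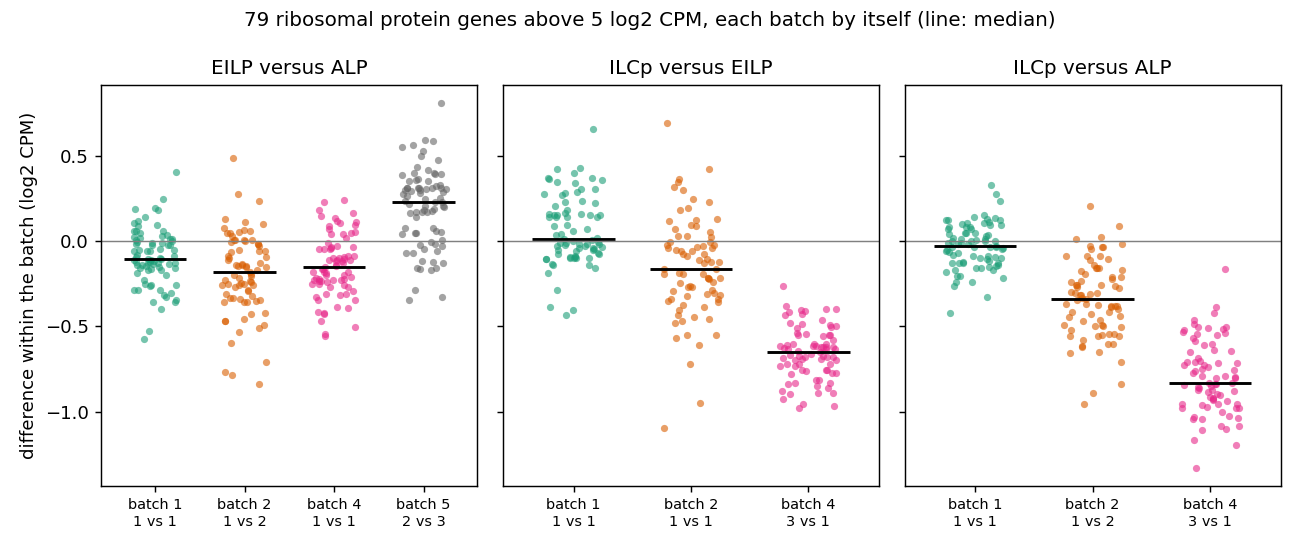
Difference in log2 CPM between 2 stages within each batch that holds both, 1 point per gene for the 79 genes above 5 log2 CPM, with their median as a line and the numbers of libraries below. The ILCp points of batch 4 lie below 0 for nearly every gene, those of batch 1 lie around 0, and those of batch 2 between, and EILP against ALP is above 0 in batch 5 and below 0 in the others.

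Single libraries moved the counts of called genes. Against EILP, 1 gene was called lower with all libraries, 5 without ALP 5, without ALP 6 or without ILCp 1, 2 without ALP 7 or without EILP 1, and 0 without EILP 5. In the 19 fits that left out 1 library, 0.516% to 1.66% of all genes were called lower. Against ALP, 7 were called with all libraries, 21 without ALP 5, 16 without ILCp 1, 2 without ILCp 2 and 1 without ALP 4, where 4.13%, 3.77%, 2.34% and 3.15% of all genes were called lower in these 4 fits. It was 4 without any 1 of ALP 2, ALP 3, EILP 3, EILP 4, EILP 5, ILCp 4 or ILCp 5 (3.5% to 3.88% of all genes). The count at an unadjusted p below 0.05 against EILP, 48 with all libraries, was 21 without EILP 5 (7.91% of all genes). That against ALP, 52 with all libraries, was 9 without ALP 4 (10.8% of all genes), and 32, 31 and 30 without ALP 2, EILP 5 and ILCp 4. Without the Plzf-cre-GFP/+ libraries no gene was called in either comparison, where 0.666% and 2.82% of all genes were called lower. Then 20 genes against EILP and 14 against ALP were lower at an unadjusted p below 0.05 (7.6% and 9.92% of all genes). The medians were −0.33 and −0.32. Of 35 other settings in all, the call against ALP was kept in 29 for Rps2, 27 for Rps20, 26 for Rpl22, 25 for Rps4x, 14 for Rpl10 and 13 each for Rpl14 and Rps16. The fold change was below 0 in each of them. Leaving out 1 library at a time, Rps2 kept its call in all 19 fits, Rps20 lost it without ALP 4, and Rpl22 and Rps4x lost it without ALP 4 or ILCp 2. Rpl10 lost it in 11 of 19 fits (all but those without ALP 5, ALP 6, ALP 7, EILP 1, EILP 2, EILP 7, ILCp 1 or ILCp 3), with adjusted p up to 0.117. Rpl14 lost it in 13 (all but ALP 1, ALP 5, ALP 6, EILP 1, EILP 2 and ILCp 1), up to 0.162, and Rps16 in 14 (all but ALP 5, EILP 1, EILP 2, EILP 6 and ILCp 1), up to 0.198.

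The 2 reporter strains of ILCp could be compared only in batch 4, with 2 Plzf-cre-GFP/+ libraries against 1 Tcf7EGFP/+ library. In limma 0 of 82 genes were called (0.0752% of all genes were) and 7 had an unadjusted p below 0.05, all lower (4.54% of all genes in either direction and 2.32% lower). The median was −0.29 on the log2 scale and 80 fold changes were below 0, while over all genes above 5 log2 CPM the median was −0.04. With 3 libraries in 1 batch, reporter and library cannot be told apart.

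The large and the small subunit moved together. The median of the large subunit genes was below that of the small subunit genes by a like amount in every stage. The difference, large minus small, was −0.63 ± 0.12 in ALP (SD, n = 7), −0.62 ± 0.11 in EILP (SD, n = 7) and −0.62 ± 0.10 in ILCp (SD, n = 5) on the log2 CPM scale. Over the genes above 5 log2 CPM it was −0.56, −0.56 and −0.53. With means in place of medians, these genes gave −0.45 ± 0.03 in ALP, −0.40 ± 0.04 in EILP and −0.41 ± 0.01 in ILCp (SD). Per kilobase of transcript the medians of these genes were 9.24 log2 CPM for the large and 9.63 for the small subunit. Fold changes were alike too. In ILCp against EILP the median was −0.44 for the 51 large and −0.41 for the 31 small subunit genes, in ILCp against ALP −0.38 and −0.43, and in EILP against ALP 0.01 and −0.02. At an unadjusted p below 0.05, 30 of 51 large and 18 of 31 small subunit genes were lower in ILCp against EILP (9.28% of all genes). In ILCp against ALP these were 30 of 51 and 22 of 31 (11.8% of all genes).

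**Figure D4:**
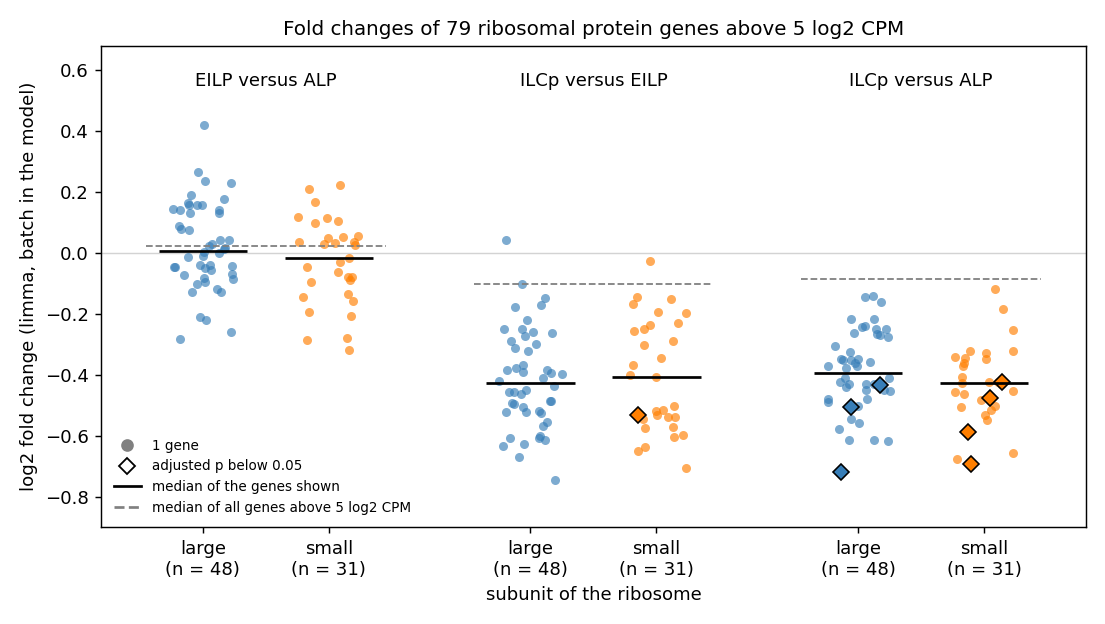
Log2 fold change from limma of the 79 genes above 5 log2 CPM, large and small subunit side by side for each comparison, with their median as a black line, the median of all genes above 5 log2 CPM as a dashed grey line and called genes as diamonds. Both subunits centre on 0 in EILP against ALP and lie below the grey line in both ILCp comparisons, with 1 and 7 diamonds.

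The genes also varied together from library to library within a stage. Over the 79 genes above 5 log2 CPM, the median correlation between 2 genes, after subtracting each stage's mean, was 0.776 across the 19 libraries, while over the 5764 other genes above that level it was 0.000675. The points share library, batch and the scaling of the table, and the value is given as a description. Against the median of the other genes, Rps23 followed the group most closely (0.988), while Rps2 (0.411) and Rpl7l1 (0.423) were among those that followed it least. The SD over the 19 libraries lay between 0.15 and 0.43 log2 CPM. Rpl4, Rpl7, Rpl13, Rpl21 and Rpsa varied least, with transcripts of 780 to 1599 bases, and Rps21, Rps27l, Rpl39, Rps12 and Rpl36 varied most, with transcripts of 383 to 612 bases. These names were taken after the values were seen.

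Transcript length moved with the fold change in both ILCp comparisons, in and outside the group. In ILCp against EILP the 61 ribosomal protein genes above 5 log2 CPM with a transcript under 1000 bases had a median of −0.46, and the 18 longer ones −0.32. Among other genes above 5 log2 CPM the median was −0.38 for 416 with a transcript under 1000 bases and −0.07 for 5110 longer ones. In ILCp against ALP these medians were −0.42, −0.35, −0.23 and −0.06 in the same order. In EILP against ALP the order was the other way round, with medians of 0.03 for the shorter and −0.07 for the longer ribosomal protein genes, and 0.16 and 0.01 for other genes. The part of transcript length in the ILCp differences was not tested. The 76 genes of mitochondrial ribosomal proteins, which serve a separate ribosome, had a median of −0.47 in ILCp against EILP. It was −0.35 in ILCp against ALP and 0.16 in EILP against ALP. In ILCp against EILP 3 were called lower (1.46% of all genes) and none higher (1.76%). In ILCp against ALP 1 was lower (4.39% of all genes) and none higher (3.86%). In EILP against ALP 1 was higher (2.25% of all genes) and none lower (2.79%).

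Some ribosomal protein genes have a second copy elsewhere in the genome that encodes a similar protein, and some copies are used in particular tissues. For 6 such pairs and for the pseudogene Rps4l with Rps4x, the log2 ratio of the copy over the parent gene was compared between stages by an exact permutation test of libraries within batches, two-sided, over 21 tests. None passed after Benjamini-Hochberg adjustment. The smallest p the design allows is 0.00833 for EILP against ALP, 0.0625 for ILCp against EILP and 0.0417 for ILCp against ALP, so the second of these cannot fall below 0.05.

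Rpl22l1 over Rpl22 had the lowest p of the pairs. Rpl22l1 is the RNA-binding paralog of Rpl22, and in mice lacking Rpl22 its level rises. The ratio was −0.57 in the median EILP library, with a range of −0.74 to −0.30, against −0.91 and −1.37 to −0.65 in ALP. The 2 ranges overlap only where EILP 1 lies below ALP 7. In ILCp 1 to 5 it was −0.30, −0.03, −0.47, −0.50 and −0.53, above every ALP library. The mean was −0.95 ± 0.25 in ALP (SD, n = 7), −0.51 ± 0.15 in EILP (SD, n = 7) and −0.37 ± 0.21 in ILCp (SD, n = 5). The difference within batches was 0.42 for EILP against ALP (exact permutation p = 0.0167, adjusted p = 0.219) and 0.59 for ILCp against ALP (exact permutation p = 0.0417, adjusted p = 0.219). The latter was 0.34 without ILCp 2, which leaves batch 2 out. For ILCp against EILP the difference was 0.19 (exact permutation p = 0.5, adjusted p = 0.618). It was 0.49 without EILP 5, 0.09 without EILP 1 or without ILCp 1, and 0.05 without EILP 2 or without ILCp 2. Only batches holding both stages count, so these omissions leave out batches 4, 1 and 2 as a whole, in this order. Rpl22l1 itself did not pass in ILCp against ALP, at −0.14 ± 0.22 on the log2 scale (SE, adjusted p = 0.787, limma). It measured 6.80, 6.70, 6.56, 5.97 and 6.29 log2 CPM in ILCp 1 to 5, against 6.15, 6.59 and 6.92 in the lowest, median and highest ALP library, and only ILCp 4 lay below the ALP range.

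The first bases of the 2 coding sequences, from the GENCODE M21 transcripts, show how far reads of this pair can be told apart. Capitals mark bases that differ from, or have no partner in, the other sequence. Over 369 aligned bases 259 are identical (70.2%), and the longest identical run is 26 bases.
Rpl22l1 (chromosome 3, coding bases 1 to 135): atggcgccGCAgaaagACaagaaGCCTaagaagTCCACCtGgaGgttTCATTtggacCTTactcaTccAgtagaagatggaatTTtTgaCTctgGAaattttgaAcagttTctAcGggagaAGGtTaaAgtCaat
Rpl22 (chromosome 4, coding bases 1 to 150): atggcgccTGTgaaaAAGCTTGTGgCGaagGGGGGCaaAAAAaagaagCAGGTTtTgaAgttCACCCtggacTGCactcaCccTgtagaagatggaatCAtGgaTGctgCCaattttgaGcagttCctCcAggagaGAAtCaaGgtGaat

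Of the 4 pairs with both genes above 5 log2 CPM, Rps27l over Rps27 had the lowest difference. The ratio was −1.17, −1.86, −1.01, −1.04 and −1.99 in ILCp 1 to 5, against −0.96, −0.81 and −0.22 in the lowest, median and highest EILP library. All 5 ILCp libraries were below all 7 EILP libraries, with ILCp 2 and ILCp 5 farthest. The difference was −0.78 (exact permutation p = 0.188, adjusted p = 0.431). It was −0.43 without EILP 2 or without ILCp 2, each of which leaves batch 2 out. In ALP the ratio ran from −1.18 to −0.52, and the differences were −0.46 for ILCp against ALP and 0.23 for EILP against ALP (exact permutation p = 0.25 and 0.208). Without ILCp 2 the first of these was −0.23, and without EILP 2 the second was 0.07, with batch 2 left out in both cases. As given above, the fold change of Rps27l in ILCp against EILP was −0.71 without passing, and that of Rps27 was −0.03. The coding sequences share 194 of 255 bases (76.1%), with no identical run over 11 bases.
Rps27l (chromosome 9, coding bases 1 to 150): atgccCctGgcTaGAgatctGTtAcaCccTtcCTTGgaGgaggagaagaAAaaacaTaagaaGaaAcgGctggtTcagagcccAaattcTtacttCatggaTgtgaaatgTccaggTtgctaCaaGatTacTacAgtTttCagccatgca
Rps27 (chromosome 3, coding bases 1 to 150): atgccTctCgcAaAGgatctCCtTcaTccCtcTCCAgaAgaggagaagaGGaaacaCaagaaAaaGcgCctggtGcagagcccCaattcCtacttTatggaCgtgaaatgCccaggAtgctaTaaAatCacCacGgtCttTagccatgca

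**Figure D5:**
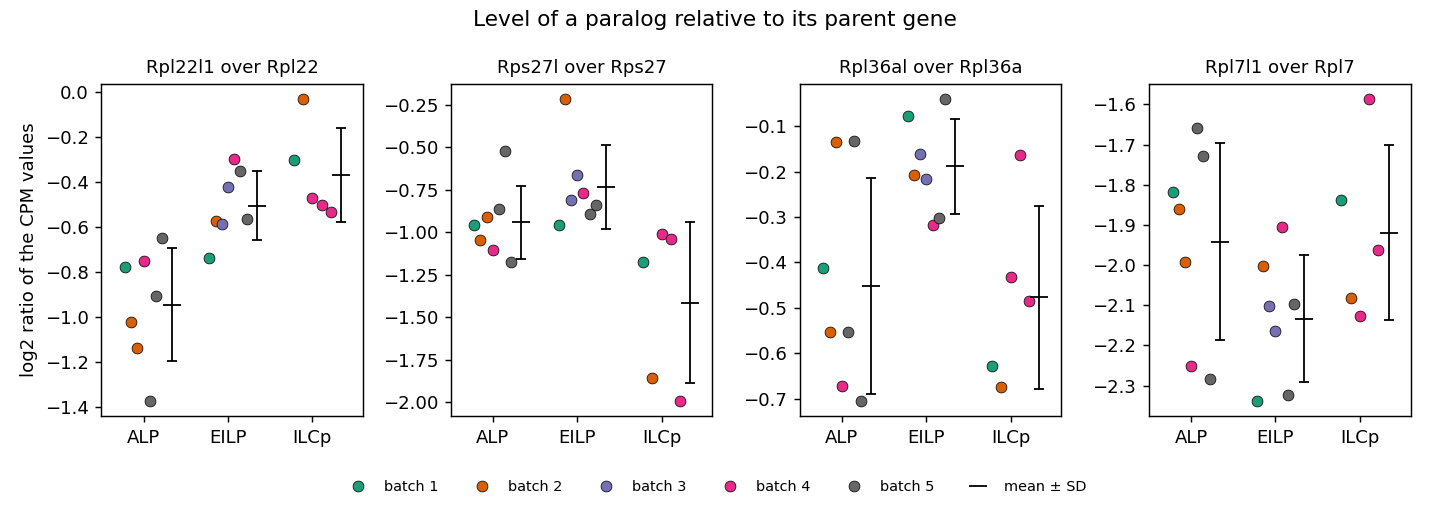
Log2 ratio of the CPM of a paralog over that of its parent gene for the 4 pairs with both genes above 5 log2 CPM, 1 point per library coloured by batch, with mean ± SD beside each stage. Rpl22l1 over Rpl22 has its lowest mean in ALP (−0.95), and Rps27l over Rps27 has its lowest mean in ILCp (−1.42). In every pair the libraries of at least 2 stages overlap.

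Of the other pairs, Rpl36al over Rpl36a was −0.45 ± 0.24 in ALP and −0.19 ± 0.10 in EILP (SD, n = 7 each) and −0.48 ± 0.20 in ILCp (SD, n = 5), with a difference of 0.27 for EILP against ALP (exact permutation p = 0.075, adjusted p = 0.263). Rpl7l1 over Rpl7 was −1.94 ± 0.25 in ALP and −2.13 ± 0.16 in EILP (SD, n = 7 each) and −1.92 ± 0.22 in ILCp (SD, n = 5). Rpl3l, the form of Rpl3 in heart and skeletal muscle, and Rpl39l, the testis form of Rpl39, were near the floor of the table. Rpl3l was tied at the lowest value of its batch in 3 of 7 ALP, 6 of 7 EILP and 4 of 5 ILCp libraries. Rpl39l was so tied with another library in 6 of 7, 4 of 7 and 3 of 5. The highest library of Rpl39l was ILCp 2 at 1.37 log2 CPM. Their ratios therefore follow the parent gene and the floor, and had differences of −3.32 for Rpl3l and 2.97 for Rpl39l in ILCp against ALP (exact permutation p = 0.0417 each, adjusted p = 0.219). Their parents Rpl3 and Rpl39 fell short of the threshold in ILCp against ALP, at −0.38 ± 0.13 (SE, adjusted p = 0.0885, limma) and −0.61 ± 0.23 (SE, adjusted p = 0.126). The pseudogene Rps4l measured 3.78 to 5.61 log2 CPM in ALP and 3.05 to 4.18 in EILP, and 1.52, 2.17, 4.87, 3.99 and −2.29 in ILCp 1 to 5. Its ratio to Rps4x differed by −1.97 in ILCp against ALP and by −1.29 in ILCp against EILP (exact permutation p = 0.292 and 0.562).

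Other genes of the translation machinery were counted from lists, all tested in the same fit. In that fit 1.46% of all genes were lower and 1.76% higher in ILCp against EILP. In ILCp against ALP these shares were 4.39% and 3.86%, and in EILP against ALP 2.79% and 2.25%. The same shares apply to every list below. Of 4 ribosomal protein genes with other symbols, 1 was lower in ILCp against EILP and none was higher, and none passed in ILCp against ALP or EILP against ALP. The one was Gnb2l1, which encodes the scaffold protein Rack1 of the small subunit and had a log2 fold change of −0.48 ± 0.12 (SE, adjusted p = 0.0486, limma). It measured 9.86, 9.65, 9.69, 9.45 and 9.47 log2 CPM in ILCp 1 to 5, against 9.86, 10.10 and 10.30 in the lowest, median and highest EILP library, and the groups meet at ILCp 1 and EILP 1. The call was lost in 15 of 19 fits that left out 1 library (all but those without ALP 5, ALP 6, EILP 1 or ILCp 1), with adjusted p up to 0.195. Of 19 translation factors and other genes whose mRNAs start with pyrimidines, 4 were lower in ILCp against EILP and none higher (Eef1d, Eef1g, Hnrnpa1 and Npm1). The same list had 2 lower and none higher in ILCp against ALP (Hnrnpa1 and Npm1) and none in EILP against ALP. The list medians were −0.35, −0.29 and 0.06.

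Hnrnpa1, an RNA-binding protein of splicing, and Npm1, the nucleolar protein nucleophosmin, fell more than any of the 79 ribosomal protein genes above 5 log2 CPM. In ILCp against EILP the log2 fold change of Hnrnpa1 was −1.08 ± 0.16 (SE, adjusted p = 0.00163, limma), with differences of −0.73, −1.52 and −1.005 in batches 1, 2 and 4. That of Npm1 was −0.86 ± 0.16 (SE, adjusted p = 0.00905), with −0.14, −1.58 and −0.83, and its adjusted p without EILP 5 was 0.0556. In ILCp against ALP they were −0.73 ± 0.15 (SE, adjusted p = 0.00593) for Hnrnpa1 and −0.77 ± 0.16 (SE, adjusted p = 0.00536) for Npm1, and without ILCp 2 the adjusted p were 0.0622 and 0.0588.

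Among 16 genes of mTORC1 and its targets, the kinase pathway that governs translation of ribosomal protein mRNAs, 1 was lower in ILCp against EILP, none was higher, and none passed in the other comparisons. It was Akt1s1, an inhibitory subunit of mTORC1, at −1.16 ± 0.28 (SE, adjusted p = 0.0361, limma), and it was not called without EILP 1, EILP 2, ILCp 1 or ILCp 2 (adjusted p up to 0.111). Of 7 measured chaperones that carry single ribosomal proteins, Heatr3, which brings Rpl5 into the nucleus, was higher in EILP against ALP at 0.94 ± 0.20 (SE, adjusted p = 0.00962) and lower in ILCp against EILP at −0.98 ± 0.24 (SE, adjusted p = 0.0343), and the other 6 did not pass in any comparison. Heatr3 measured 6.63, 7.04 and 7.18 log2 CPM in the lowest, median and highest EILP library, against 5.52, 6.07 and 6.41 in ALP, and the 2 groups did not overlap. The first call held without any 1 library, and the second was lost without EILP 1, EILP 2, EILP 5, EILP 7, ILCp 1, ILCp 2 or ILCp 5 (adjusted p up to 0.136).

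Free Rpl5 and Rpl11 bind Mdm2, the protein that holds p53 down, which ties ribosome assembly to p53. Rpl5 measured 9.14, 8.61, 9.14, 8.40 and 8.80 log2 CPM in ILCp 1 to 5, against 9.28, 9.42 and 9.71 in the lowest, median and highest EILP library, with no overlap. Its log2 fold change was −0.61 ± 0.21 (SE, adjusted p = 0.14, limma). Rpl11 was at −0.40 ± 0.18 (SE, adjusted p = 0.29). Of 15 measured genes of p53 and its targets, 2 were higher and 1 lower in EILP against ALP, 1 was higher and 2 lower in ILCp against EILP, and 1 was higher and none lower in ILCp against ALP. The cell cycle inhibitor Cdkn1a was higher by 1.799 ± 0.264 in EILP against ALP (SE, adjusted p = 0.000538) and fell by 1.73 on the log2 scale in ILCp against EILP (adjusted p = 0.00729, limma). Perp, a membrane protein, lay between 4.22 and 6.90 log2 CPM in EILP and between −5.45 and −2.64 in ALP, and was called higher (adjusted p = 1.88e-05, limma), with a size that depends on the floor of the table. The calls of Perp in ILCp, at −5.29 against EILP and 4.26 against ALP, share that limit. Phlda3 was lower in EILP against ALP at −5.02 ± 1.203 (SE, adjusted p = 0.0215, limma). It lay between −3.98 and 2.10 log2 CPM in EILP and between 2.70 and 6.30 in ALP. Its differences were −9.72, −9.52, −2.82 and −1.67 in batches 1, 2, 4 and 5, so its size also depends on the floor. Trp53inp1 was higher in ILCp against EILP at 1.41 ± 0.34 (SE, adjusted p = 0.0361, limma). Of these p53 target calls, those of Cdkn1a and Perp in EILP against ALP held without any 1 library. That of Cdkn1a in ILCp against EILP was lost without EILP 5 (adjusted p = 0.057), and that of Phlda3 in 5 of 19 such fits (ALP 1, ALP 2, ALP 4, EILP 1 and EILP 2, adjusted p up to 0.0926). That of Trp53inp1 was lost in 12 (all but ALP 3, ALP 5, ALP 6, ALP 7, EILP 6, EILP 7 and ILCp 3, up to 0.142). The call of Perp in ILCp against EILP was lost without EILP 2, EILP 5 or ILCp 2 (up to 0.0921), and that against ALP without ALP 1, EILP 5, ILCp 1 or ILCp 5 (up to 0.12).

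Of the 13 genes of the group mutated in the human Diamond-Blackfan anaemia, a failure of red cell formation, none was called in any comparison. Of all genes, 1.46% were lower in ILCp against EILP, 4.39% in ILCp against ALP and 2.79% in EILP against ALP. Called higher were 1.76%, 3.86% and 2.25%. With so few genes, the lack of calls does not set the 13 apart from all genes. Their medians were −0.49 in ILCp against EILP, −0.42 in ILCp against ALP and 0.04 in EILP against ALP. Rps19, the gene most often affected, measured 10.28, 10.27, 9.79, 9.76 and 10.09 log2 CPM in ILCp 1 to 5, against 9.84, 10.36 and 10.90 in the lowest, median and highest ALP library, and the groups overlap. Its log2 fold change in ILCp against ALP was −0.36 ± 0.18 (SE, adjusted p = 0.268, limma).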

How the data were processed

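RNA of sorted progenitors was extracted with an RNeasy plus micro kit and made into libraries with SMARTer Ultra Low v3 and Nextera XT, which mark no strand, per the labels' protocols. The submitters' processing notes list STAR 2.4.0h, bcl2fastq 1.8.4, limma, edgeR and mm10 without saying what each was used for. The counting step is not given in the sources used here. Values, for 18607 genes in 19 libraries, were deposited as log2 CPM, which was read from their sums per library on the linear scale. No header records the scaling. As far as the values show, the authors had equalised the libraries' distributions and removed batch differences while keeping the groups apart. This makes the spread within groups too small, and with it the p-values of fits without batch as a fixed effect. The main fit keeps batch as a fixed effect and so counts the batches among what it estimates. Counts and depth are unknown, so no interval for counting error can be given.

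Genes were matched by symbol, Ensembl identifiers and transcripts to GENCODE M21 (GRCm38), and promoters to RefSeq on GRCm38.p6. Transcript length is that of the shortest principal transcript. All genes were fitted with limma 3.58.1 in R 4.3.3, with a mean-variance trend, the 3 stages and the batch as fixed effects over all 19 libraries, two-sided, adjusted over 18607 genes at a threshold of 0.05. Paralog ratios were tested by exact permutation within batches (Python 3.11.15, numpy 2.4.6, pandas 2.3.3, scipy 1.17.1), coding sequences aligned with Biopython 1.88, and figures drawn with matplotlib 3.10.9. The fit was tested on simulated data. The members and lists were chosen with earlier results of these data known. Genes are named by a rule: both members of each paralog pair, up to 10 called genes per direction, the 3 largest rises and falls above 5 log2 CPM, the 5 highest and lowest levels per kilobase, and up to 2 called genes per direction of each other list. Some genes that this rule names are not reported here. Other names were chosen after their values were seen (Rps27 and other genes named for being at either end of the table of variability or correlation, Rpl5, Rpl11, Rps19, Rpl3, Rpl39, Eef1d and Eef1g). Alternatives left out each library, a reporter strain or a batch, or changed the batch term, scaling, filter, trend or fold threshold. Those on batch 4, on ALP 5 with ALP 6 and on ALP 7 with EILP 2 were chosen after seeing the data.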

Additional observations from a re-analysis of the deposited data

Results flagged for a closer look

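In each group of 5 or 7 libraries, a library was singled out where its gap to the nearest other library was too large a part of the group's range by Dixon's limit for that group size. Over 39 genes, ratios and summary values in 3 stages this held in 11 of 117 groups, and chance flags about 1 in 20 groups. Each is given as values only, and no cause was tested.

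Among genes above 5 log2 CPM, ALP 5 stood low for Rpl27 (7.71 log2 CPM, nearest library 8.42) and Rpl38 (6.95, nearest 7.67). EILP 5 stood high for Rps20 (9.29, nearest 9.1) and Rps4x (10.03, nearest 9.83), and EILP 6 for Rpl39 (8.83, nearest 8.36). The log2 ratio of Rps27l over Rps27 was high in EILP 2 (−0.22, nearest −0.66). The median of the large subunit minus that of the small one was lowest in ALP 6 (−0.88, nearest −0.66).

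Among genes near the floor of the table, Rpl24 was low in EILP 2 (−0.39 log2 CPM, nearest 0.42), Rpl3l high in EILP 7 (−0.35, nearest −3.61) and Rpl39l high in ILCp 2 (1.37, nearest −2.14). The log2 ratio of Rpl39l over Rpl39 was accordingly high in ILCp 2 (−6.26, nearest −9.93).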

How the results depend on the processing

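The direction of the median over the 82 genes in both ILCp comparisons held in every setting tried. In ILCp against EILP, 1 gene was called lower as reported, and 47 without a batch term, 70 with batch as a random effect, 15 with each library centred on its median, 5 with quantile normalization, 6 among the more highly read genes only (level above the median gene) and 4 without ALP 5 and ALP 6. It was 0 with only the groups compared, without the Plzf-cre-GFP libraries, in limma without trend, with a log2 fold change of at least 1, without batch 4 and with batch 4 alone, and 0 to 5 leaving out 1 library. In ILCp against ALP, 7 were called lower as reported, 50 without a batch term, 77 with batch as a random effect (and 1 higher, against 0 as reported), 13 without ALP 5 and ALP 6, 2 centred, 1 with only the groups compared, and 1 to 21 leaving out 1 library. It was 0 without the Plzf-cre-GFP libraries, without trend, with a log2 fold change of at least 1, without batch 4 and with batch 4 alone. In EILP against ALP, where none was called, 1 was higher with batch as a random effect and 2 centred (9.17% and 4.32% of all genes). The settings without a batch term or with batch as a random effect have p-values that are too small, as given above. The share of all 18607 genes called lower moved with the setting as well. In ILCp against EILP it was 1.46% as reported, 9.18% without a batch term, 24.6% with batch as a random effect and 2.1% centred. In ILCp against ALP it was 4.39%, 11.7%, 33.4% and 3.14% in these settings. Quantile normalization gave 1.51% against EILP. Of the 9303 more highly read genes, 3.85% were lower against EILP. Against EILP and ALP in turn, the share was 1.21% and 3.82% without ALP 5 and ALP 6. With only the groups compared it was 0.322% and 1.92%. It was 0.559% and 2.78% without trend, and 0.844% and 3.21% with a log2 fold change of at least 1. Leaving out 1 library gave 2.34% to 4.58% against ALP. Without batch 4 the medians were −0.18 in ILCp against EILP and −0.11 in ILCp against ALP, and with batch 4 alone −0.65 and −0.83. None of 17 pairs of libraries that share a number correlated over 0.1 (−0.60 to 0.09). This cannot decide on pairing where same-numbered libraries share a batch, as ALP 1, EILP 1 and ILCp 1 do. With batch differences removed from the values, the deviations of such libraries offset each other. With the replicate block 0 genes were called lower in ILCp against EILP (0.656% of all genes) and 7 in ILCp against ALP (2.37%). None was called in EILP against ALP (1.19% of all genes higher and 1.23% lower), where the median was −0.16. Depth is unknown, and Rpl24, Rpl3l and Rpl39l are too low for a change to be read.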
